A study of Saccharomyces cerevisiae with 54 samples.

Results

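The cytochrome bc1 complex of budding yeast was examined through the transcripts of its 9 nuclear subunit genes, which were taken by name from the 6264 genes on the arrays. The 9 genes were RIP1 (YEL024W), CYT1 (YOR065W), COR1 (YBL045C), QCR2 (YPR191W), QCR6 (YFR033C), QCR7 (YDR529C), QCR8 (YJL166W), QCR9 (YGR183C) and QCR10 (YHR001W-A), and all 9 had values in each of 17 non-laboratory Saccharomyces cerevisiae strains. The strains were the vineyard strains B1, I14, M22, M8, PR and RM11a, the sake strains K1 and K9, the clinical isolates YJM308 and YJM789, the oak strains YPS1009 and YPS163, and Y1, Y10, Y12, YJM269 and SB from other sources (niches as the study gives them). Each of the 54 spotted arrays of long oligonucleotides set RNA of 1 strain directly against RNA of DBY8268, a diploid ura3 mutant of the S288c laboratory lineage that served as the control throughout. All cultures were harvested in early log phase in YPD, a rich glucose medium, and none was treated. By the study's account RM11a and YJM789 were haploid. In the array values the genes specific to a mating type had a median log2 ratio of 6.18 in RM11a for a-specific genes, against at most 0.16 in any other strain, and of 7.44 in YJM789 for alpha-specific genes, against at most 1.18 elsewhere.

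The bc1 complex, or complex III, is a dimer in the inner mitochondrial membrane. It takes electrons from ubiquinol, hands them to cytochrome c and moves protons across the membrane while doing so. Its catalytic centers sit in cytochrome b, which is encoded by COB in the mitochondrial genome, in cytochrome c1 (CYT1) and in the Rieske iron-sulfur protein (RIP1), whereas the other nuclear subunits carry no redox group. Yeast represses many respiratory genes while it ferments glucose, which was the carbon source in every culture here.

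Transcripts of the complex were higher in the non-laboratory strains than in DBY8268. Of the 153 combinations of a gene and a strain, 112 were higher at a false discovery rate of 0.01 (limma, Benjamini-Hochberg adjustment within each strain), 0 were lower and 41 did not pass. Among all 97109 gene and strain combinations tested, 3.86% were higher by the same rule and 4.88% were lower. Strain means lay above 0 in 152 of the 153 combinations, the exception being QCR10 in I14. On single arrays, 459 of the 465 values present exceeded 0 and 6 did not, whereas 47.2% of all values in the data set exceeded 0. Since DBY8268 RNA was present on every array and on none by itself, these tests set a ratio against 0. Any variation of DBY8268 between arrays is part of the spread of the ratios and cannot be separated from that of the strain.

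**Figure D1:**
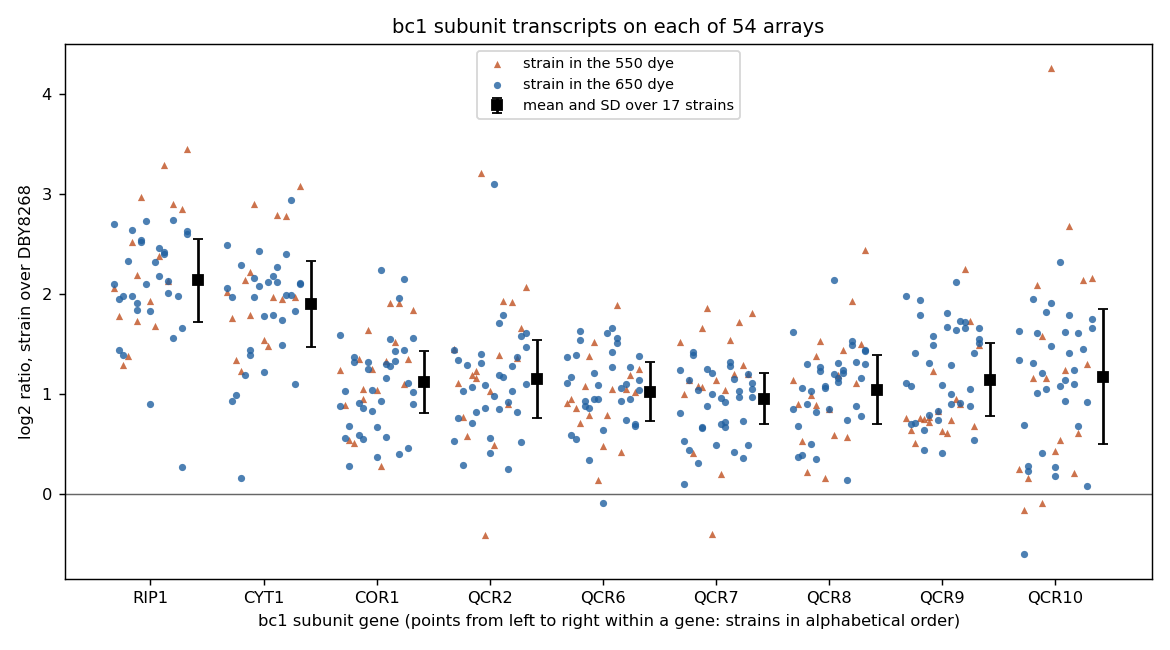
Log2 ratio of strain over DBY8268 (y axis) for each bc1 subunit gene (x axis) on every array with a value; triangles are arrays with the strain's RNA in the 550 dye, circles those with it in the 650 dye, and black squares with bars give the mean and SD over 17 strains. RIP1 and CYT1 sit highest, with means of 2.14 and 1.91, and QCR10 spreads most widely, between -0.60 and 4.26.

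Of the subunits with redox centers, RIP1 carried the largest difference in the complex. Its mean log2 ratio was 2.14 ± 0.42 (SD over 17 strains), a 4.40-fold level in the strains relative to DBY8268, and it ranked 5 from the top among 4654 genes with a value in every strain. Values on its 47 arrays ran between 0.27 and 3.45 with a median of 2.13, so that no array placed the RIP1 transcript at or below its DBY8268 level. All 17 strains were called, which only 0.279% of the 4654 genes achieved, and the largest adjusted p was 0.00304, in YJM789, where a single array gave a value that was assumed to vary like those of the other strains.

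The order of the strains for RIP1 began with YPS163 (mean log2 ratio 2.89), Y12 (2.70) and PR (2.68). In YPS163 the arrays gave 2.60, 2.63 and 3.45, in Y12 they gave 2.40, 2.42 and 3.29, and in PR they gave 2.52, 2.54 and 2.97. These 3 strains overlapped one another array by array. At the other end stood SB and K1, both with a mean of 1.55, and YPS1009 with 1.59. The SB arrays read 0.90, 1.83 and 1.93 and the K1 arrays 1.39, 1.98 and 1.29. Both lay wholly below the 3 leading strains, but these strains were picked by their means, so the separation was no test of a difference. The same limit applies to the highest and lowest strains named for each gene below. YPS1009 was the least even, with 1.66, 0.27 and 2.85 on its replicates 1 to 3, so that its lowest and highest arrays nearly spanned the whole RIP1 range. None of the 16 steps between neighbors in this order exceeded its own standard error, the largest being 0.26 (SE 0.46) between RM11a and PR.

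CYT1 followed, with a mean of 1.91 ± 0.43 (SD over 17 strains), or 3.75-fold. It was above 0 on all 47 arrays that measured it, with a lowest value of 0.16, a median of 1.97 and a highest value of 3.08. The difference was called in 16 strains. K1 was the exception at a mean of 1.17 (arrays 0.99 and 1.34, limma adjusted p = 0.0196), and it remained inside the looser rate of 0.05. YJM789 had the highest CYT1 mean, 2.47, from arrays of 1.99 and 2.94. K9 showed the widest spread, with 0.16, 2.29 and 1.23 on its replicates. Without K9 replicate 1, CYT1 was called in 17 strains.

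RIP1 and CYT1 thus stood apart from the 7 nuclear subunits without redox centers. COB, which also encodes a redox subunit, did not: it averaged 0.96 ± 0.89 (SD over 17 strains) and was called in 1 strain. On the 42 arrays that gave all 9 values, RIP1 and CYT1 were the top pair on 39, and RIP1 was highest on 33. Among strain means, RIP1 exceeded each of the other 7 genes in 16 strains and CYT1 did so in 15. The exceptions were RM11a, where QCR10 was above both, and K9, where QCR9 (1.50) and other genes were above CYT1 (1.23). The RM11a exception rested on replicate 3, where QCR10 read 4.26 and RIP1 and CYT1 had no value. On RM11a replicates 1 and 2, RIP1 and CYT1 were both above QCR10 (1.48 and 1.91). The K9 exception likewise rested on 1 array, replicate 1, where CYT1 read 0.16. On K9 replicates 2 and 3, CYT1 (2.29 and 1.23) was above each of the other 7 genes. RIP1 was above CYT1 in 15 of 17 strains and on 36 of the 45 arrays with both. These comparisons are between ratios, each relative to the same gene in DBY8268, and how far any oligonucleotide compresses its ratio was not measured. RIP1 and CYT1 were each missing on 7 arrays, 5 of them shared, and those 5 held between 3393 and 4430 values in all.

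**Figure D2:**
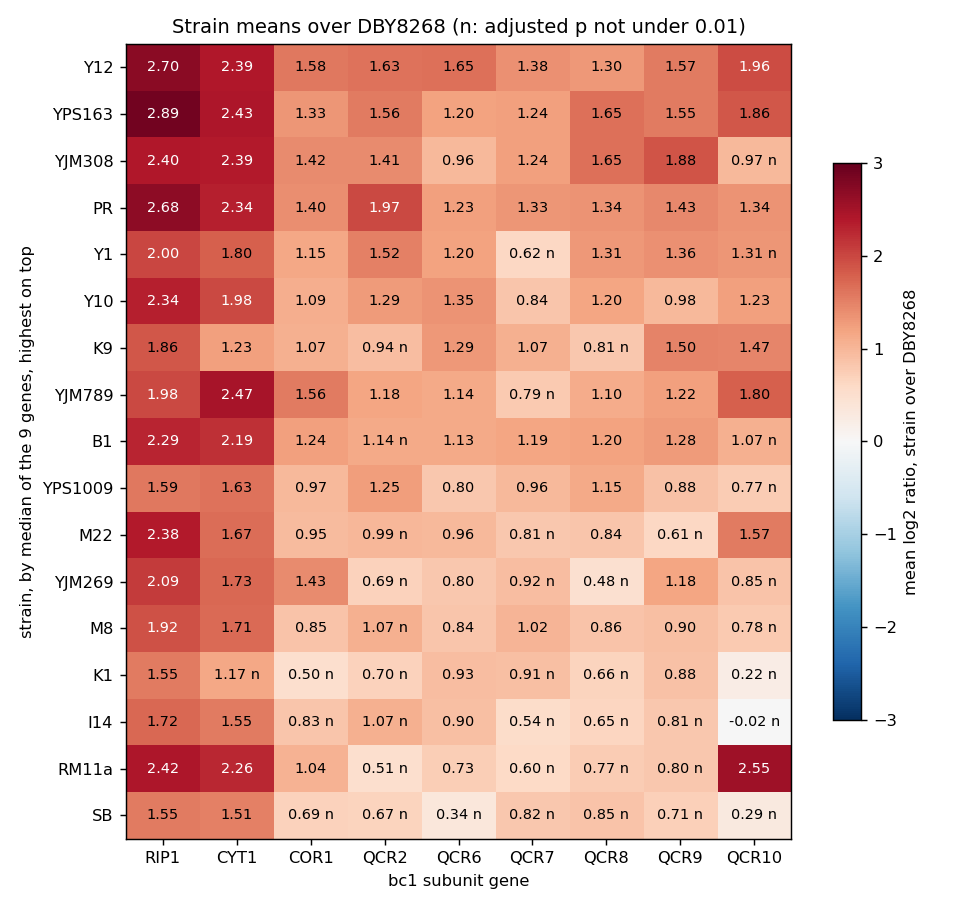
Mean log2 ratio of strain over DBY8268 for each strain (rows, ordered by the median of the 9 genes) and each bc1 subunit gene (columns); colour and printed number give the same mean, and n marks means whose adjusted p was not under 0.01. The Y12, YPS163, PR and Y10 rows carry no n, and the SB row carries 7.

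COR1 and QCR2 encode the 2 core proteins, large matrix-facing subunits related in sequence to the mitochondrial processing peptidase. COR1 averaged 1.12 ± 0.31 (SD over 17 strains), or 2.18-fold, and was measured above 0 on all 54 arrays, between 0.28 and 2.24. It was called in 14 strains, all but I14, K1 and SB. The highest strain was Y12 (1.28, 1.55 and 1.91 on its arrays) and the lowest K1 (0.28, 0.68 and 0.54). COR1 was not called by the moderated F test over strains described below (adjusted p = 0.271).

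QCR2 had nearly the same mean, 1.15 ± 0.39, yet it was called in only 8 strains, since its arrays scattered more (moderated SD within strains 0.57, against 0.45 for COR1). In 3 strains 1 array lay far from its partners. Y1 replicate 1 read 3.10 where the other Y1 arrays read 0.98 and 0.49, PR replicate 3 read 3.21 against 1.40 and 1.31, and RM11a replicate 3 read -0.41 against 0.86 and 1.09. The last was the only QCR2 value below 0. At a rate of 0.05, QCR2 was higher in 12 strains, and without Y1 replicate 1 it was called in 11 at 0.01.

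QCR6 encodes the acidic hinge protein beside cytochrome c1. Its mean of 1.03 ± 0.30 (SD over 17 strains) was the most even within strains of the 9 genes (moderated SD 0.33), and it was called in 16 strains. SB was the exception, with -0.09, 0.64 and 0.48 on its arrays and an adjusted p of 0.305. Y12 was highest at 1.51, 1.56 and 1.89, all above each of the SB values.

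QCR7 and QCR8 are small subunits that join cytochrome b early in assembly. QCR7 had the lowest mean of the complex, 0.96 ± 0.26, and was called in 9 strains. Its strain means ran between 0.54 in I14 (arrays 0.10, 0.53 and 1.00) and 1.38 in Y12 (1.28, 1.32 and 1.54). The moderated F test over strains described below did not call QCR7 (adjusted p = 0.570). A single array weighed on the count: RM11a replicate 3 read -0.40 where its partners read 1.21 and 1.00, and without that array QCR7 was called in 14 strains. QCR8 averaged 1.05 ± 0.34 and was above 0 on all 53 arrays with a value, between 0.14 and 2.44. It was called in 11 strains, and its extremes were YPS163 (1.43, 1.44, 1.30 and 2.44) and YJM269 (0.14, 0.74 and 0.57), which did not overlap.

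QCR9, a small transmembrane subunit close to cytochrome c1 and the iron-sulfur protein, averaged 1.15 ± 0.36 (SD over 17 strains). It was above 0 on all 54 arrays, between 0.41 and 2.25. At 0.01 it was called in 13 strains and at 0.05 in all 17. YJM308 was highest, with 1.72, 1.66 and 2.25, and M22 lowest, with 0.64, 0.44 and 0.75. These arrays did not overlap.

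QCR10, which encodes another small subunit, had a similar mean but a much wider spread, at 1.18 ± 0.67 (SD over 17 strains). Its arrays also scattered most within strains among the 9 genes (moderated SD 0.63, against 0.57 for QCR2). QCR10 was called in 8 strains, namely K9, M22, PR, RM11a, Y10, Y12, YJM789 and YPS163. In RM11a the arrays read 1.48, 1.91 and 4.26, giving the highest strain mean of any subunit other than RIP1 (2.55). In I14 they read -0.60, 0.69 and -0.16. K1 (0.23, 0.28 and 0.16) and SB (0.27, 0.18 and 0.43) were low as well, on arrays that differed little among themselves. The arrays of RM11a lay wholly above those of I14, K1 and SB.

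By the study's rule for differences common to most strains, called in the same direction at 0.05 in at least 12 of 17 strains, 8 of the 9 genes qualified as higher. QCR10, with 9 strains, did not. Of the 4654 genes with a value in all strains, 1.53% met that rule in the upward direction. Mean ratios above 0 in all 17 strains were found for the same 8 genes, against 4.81% of the 4654. QCR2 met the rule with exactly 12 strains and no longer met it when any of 16 single arrays was left out, whereas without RM11a replicate 3 all 9 genes met it. With slide series as a block QCR7 did not meet it.

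The number of genes called also differed by strain. All 9 were called in PR, Y10, Y12 and YPS163, where 2.79%, 2.07%, 2.71% and 3.25% of all genes were higher. YJM308, YJM789 and YPS1009 each had 8, beside 6.20%, 13.1% and 3.27% of all genes. B1, K9, M8 and Y1 had 7 and M22 had 6, with 1.65%, 4.02%, 2.28%, 3.17% and 4.29% of all genes called in that order. RM11a and YJM269 had 5 (6.50% and 4.79% of all genes), I14 and K1 had 3 (1.87% and 2.95%) and SB had 2 (2.27%). In SB these were RIP1 and CYT1, which were also among the 3 called in I14. YJM789, with the largest share of all genes called, had 8 bc1 genes called and Y10 had 9, a gap of QCR7 alone. The QCR7 mean was 0.79 on 3 arrays in YJM789 (limma adjusted p = 0.0164) and 0.84 on 4 arrays in Y10 (0.00868). Counts of calls also depend on the number of arrays with a value, which was 1 for RIP1 in YJM789.

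The second comparison asked how the strains differed among themselves, with DBY8268 taken out by centering each gene on its mean over the 17 strains. In 6 strains all 9 genes lay on the same side of that mean. All 9 transcripts lay above the mean of strains in PR, Y12 and YPS163, and all 9 lay below it in I14, K1 and SB. Averaged over the 9 genes, the difference from the mean of strains was 0.50 in Y12, 0.45 in YPS163 and 0.38 in PR, and -0.47 in SB, -0.46 in K1 and -0.40 in I14. None of their 54 combinations passed 0.01 in limma. The nearest was QCR6 in SB at -0.68 (95% interval -1.07 to -0.30, adjusted p = 0.0434). In the other 11 strains the 9 genes lay on both sides of the mean.

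**Figure D3:**
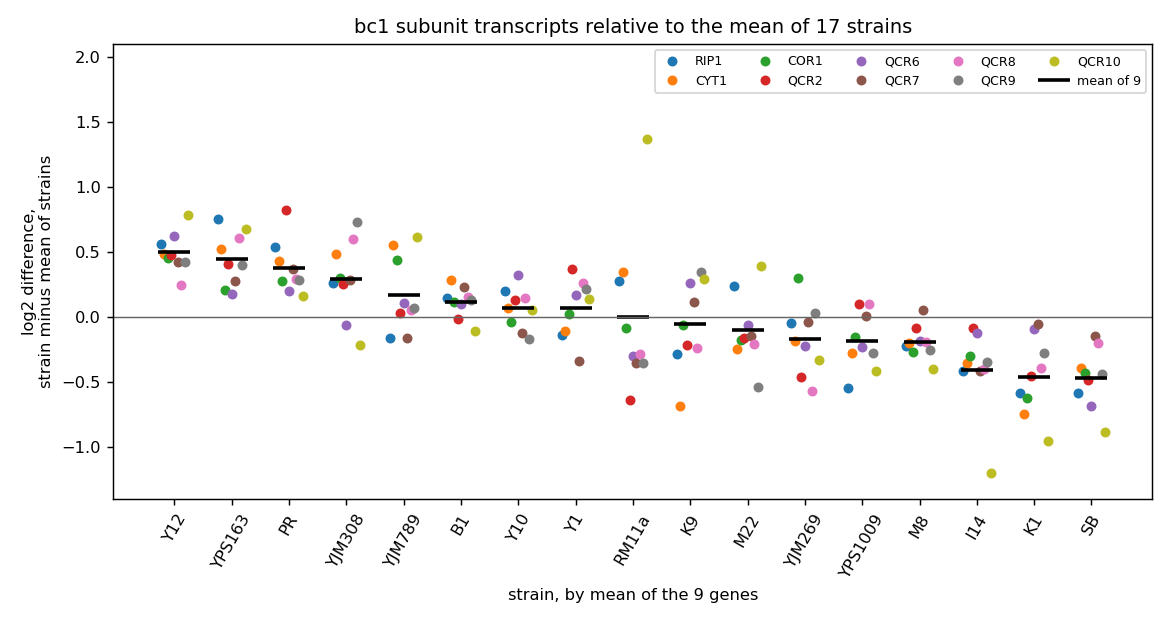
Difference of each strain from the mean of 17 strains in log2 ratio (y axis), for the 9 bc1 genes (coloured points) in each strain (x axis, ordered by the mean of the 9, black bars). Y12, YPS163 and PR have all 9 points above 0, I14, K1 and SB have all 9 below, and the highest point is QCR10 in RM11a at 1.37.

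A single combination was called against the mean of strains, QCR10 in RM11a, at 1.37 (95% interval 0.64 to 2.11, limma adjusted p = 0.00929). Among all gene and strain combinations 2.67% were called in either direction. At an unadjusted p under 0.05 there were 17 of 153, beside 14.8% of all combinations. The RM11a call rested on replicate 3 with its 4.26, since without that array the difference was 0.57 (adjusted p = 0.511). With slide series and dye as terms in the model it was 2.25 (adjusted p = 0.000147). In that model only M22, RM11a and YJM789 tell dye and series apart, so RM11a replicate 3 enters those terms as well. The value of 2.25 is therefore not independent of that array. RM11a replicate 3 also had the lowest bc1 median of any array, 0.16, lacked RIP1 and CYT1, and held 3478 values in all. QCR9 in YJM308 came next to the threshold on the upper side, at 0.73 (95% interval 0.26 to 1.20, adjusted p = 0.0498), with all 3 of its arrays above the QCR9 mean over strains.

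By the moderated F test over strains, which asks whether a gene varied among the 17 strains beyond the spread between arrays, QCR10 alone was called (adjusted p = 0.00562). The background was 18.4% of 4654 genes. QCR9 (adjusted p = 0.0341), QCR8 (0.0368) and QCR6 (0.0394) lay between 0.01 and 0.05, RIP1 (0.118), CYT1 (0.0861), COR1 (0.271), QCR2 (0.293) and QCR7 (0.570) lay above, and 6 genes had an unadjusted p under 0.05, beside 41.3% of the 4654. For QCR10 the call was lost when any of I14 replicate 1, I14 replicate 3, K1 replicate 3 or SB replicate 2 was left out, and it stayed without RM11a replicate 3. No neighbors in the order of strains for any of the 9 genes differed by more than 2 standard errors.

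Set against the oak strain YPS163, which had some of the highest values, 0 of 144 combinations were called by limma, beside 2.00% of all combinations, and 36 had an unadjusted p under 0.05, beside 13.1% of all combinations. QCR8 in YJM269 was nearest, at -1.17 relative to YPS163 (95% interval -1.77 to -0.57, adjusted p = 0.0104). Leaving out any of 9 arrays, among them YPS163 replicate 3 and RM11a replicate 3, brought that pair under 0.01. The other oak strain, YPS1009, had lower means than YPS163 for all 9 genes. For RIP1 the difference was -1.30 (95% interval -2.14 to -0.46, adjusted p = 0.181), and for QCR10 it was -1.09 (95% interval -2.13 to -0.05, adjusted p = 0.530). Without YPS1009 replicate 3 the RIP1 difference was called. Both comparisons use the same YPS163 arrays.

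The dye and the slide were known for each array from the labels. In 14 strains the array with the dyes reversed, with the strain's RNA in the 550 dye, was also the array from slide series yG6, so dye and series cannot be told apart there. QCR9 was lower on those arrays than on the other arrays of the same strain in 13 of 14 strains, with a median difference of -0.31, in contrast to COR1, QCR2 and QCR7, which were higher on them in 12 of 14 each (medians 0.31, 0.41 and 0.46). CYT1 was higher on them in 11 of 14 strains (median 0.34) and RIP1 in 10 of 14 (median 0.085). In M22, RM11a and YJM789, whose arrays of both orientations were all of series yG6, QCR9 was not lower in the 550 dye: it read 0.75 against 0.64 and 0.44, 0.83 against 0.83 and 0.74, and 1.73 against 0.88 and 1.05. With dye alone in the model no bc1 gene was called (QCR9 -0.29 ± 0.11 SE, adjusted p = 0.127), beside 2.39% of all genes. With dye and series together QCR10 came closest, at -1.52 for yG6 over yG5 (adjusted p = 0.0750) and 1.41 for 550 over 650 (adjusted p = 0.0625), beside 0.499% and 0.607% of genes called for these terms. Only M22, RM11a and YJM789 separate these terms, and RM11a replicate 3, at 4.26 for QCR10, is among their arrays.

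**Figure D4:**
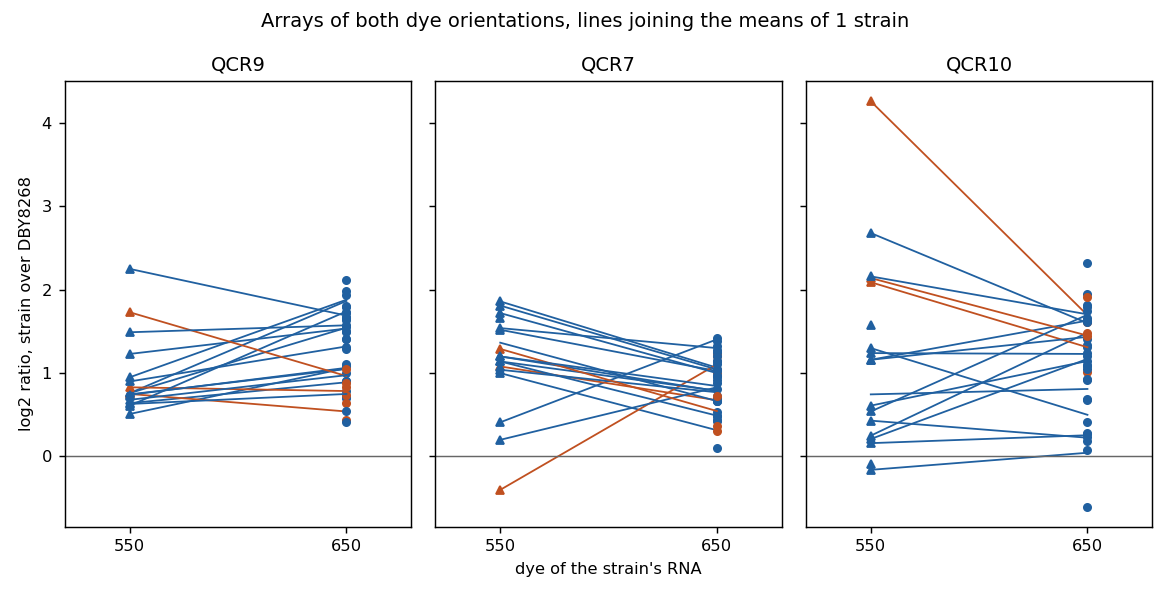
Log2 ratio of strain over DBY8268 (y axis) on arrays with the strain's RNA in the 550 or the 650 dye (x axis) for QCR9, QCR7 and QCR10, with lines joining the means of 1 strain; orange marks M22, RM11a and YJM789, whose arrays were all of slide series yG6. QCR9 slopes up towards 650 in 13 of the 14 other strains, and the highest QCR10 point is RM11a replicate 3 at 4.26.

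Within each of the main slide series the bc1 means stayed above 0. On yG6 arrays, which covered 17 strains, they lay between 0.91 (QCR9) and 2.28 (RIP1), and on yG5 arrays, which covered 14, between 0.89 (QCR7) and 2.05 (RIP1). The count of calls was 17 on yG6 arrays alone and 49 on yG5 arrays alone, on fewer arrays per strain than in the main fit. The share of all genes called in these refits was not computed, so the counts do not measure an effect of series.

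Across the 17 strains the 9 transcripts correlated positively. The 36 pairs of genes had a median Pearson r of 0.57 over the strain means, all above 0, between 0.18 (QCR7 with QCR10) and 0.81 (QCR2 with QCR8), whereas pairs among 3822 genes had a median of 0.03. Residuals of the arrays around their strain means gave a median r of 0.43, with a range of -0.13 to 0.80, against 0.04 for pairs of the 777 genes with a value on every array. Points in these correlations share arrays, dye and the DBY8268 channel. RIP1 followed the mean of the other 8 most closely (r = 0.83) and QCR10 least (0.55). Such covariation was not particular to the bc1 genes. With the mean of the 9, nuclear ATP synthase genes had r between 0.31 (ATP3) and 0.76 (TIM11). Nuclear cytochrome c oxidase genes had r between -0.13 (COX5B, over 14 strains) and 0.78 (COX5A). The 9 genes lie on 9 different chromosomes.

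Among the other genes, those most like the mean profile of the complex over 17 strains, out of 3814 compared, were MIX17 (r = 0.82), a mitochondrial intermembrane space protein, MRP2 (0.81), a protein of the mitochondrial ribosome, YGL188C (0.80), YGR182C (0.80) and COX5A (0.78), a cytochrome c oxidase subunit. YGR182C bears the number next to that of QCR9 (YGR183C). For RIP1 alone the nearest profile was that of CYT1 (r = 0.79).

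The partners of the complex on the electron path showed a graded picture. CYC1, the main cytochrome c, which takes electrons from cytochrome c1, was higher still, at 2.62 ± 0.54 (SD over 17 strains) with 17 strains called. CYC7, the cytochrome c isoform of low oxygen, averaged 0.67 ± 0.93 and was called in 6 strains, with means between -0.87 in M22 and 2.37 in YJM789. COB, the mitochondrial gene of cytochrome b and the only subunit not encoded in the nucleus, averaged 0.96 ± 0.89, close to the QCR genes in its mean, but its strain means ran between -0.41 in SB and 2.60 in YJM789 and it was called in 1 strain. Of all 112 combinations for the 7 partner genes, which also included the NADH dehydrogenases NDE1, NDE2 and NDI1 and the lactate dehydrogenase CYB2, 35 were higher and 0 lower.

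The 9 subunits had a median mean log2 ratio of 1.15, against 0.49 for 11 genes that assemble the complex or express COB and -0.03 for all genes tested. Higher calls made up 73.2% of the combinations for the subunits (112 of 153) and 12.8% for the assembly and COB expression genes (24 of 187), with 0 lower in either list. MZM1, which helps fit the Rieske protein into the complex, had the highest mean (0.79 ± 0.31, 3 strains called) and BCA1 the lowest (-0.04 ± 0.19, 0 strains called at 0.01 or 0.05). The 10 genes of ubiquinone synthesis, which supply the substrate of the complex, had a median of 0.10, with 5 of 170 combinations higher and 4 lower. COQ1 was highest among them (0.38 ± 0.37) and COQ4 lowest (-0.35 ± 0.46).

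Of the other respiratory complexes, nuclear cytochrome c oxidase was nearest to bc1. Its 9 genes had a median of 1.30, with 73 of 150 combinations (48.7%) higher and 3 lower. COX4 was highest (1.68 ± 0.66), and the 3 lower calls were all in COX5B, the low-oxygen alternative to COX5A, at -1.33 ± 0.69 over 14 strains. The 14 nuclear ATP synthase genes had a median of 0.63, all 14 above 0, with 57 of 238 combinations higher. ATP20 was highest (1.23 ± 0.38) and ATP3 lowest (0.23 ± 0.31). The 4 genes of succinate dehydrogenase had a median of 0.65 and 7 of 68 combinations higher, with SDH1 highest (1.11 ± 0.69) and SDH3 lowest (0.16 ± 0.49). MAS1 and MAS2, the processing peptidase subunits to which the core proteins are related, averaged 0.60 ± 0.23 and 0.24 ± 0.24, with 10 of 34 combinations higher. The supercomplex factors RCF1 (0.48 ± 0.38) and RCF2 (-0.12 ± 0.28) and the cardiolipin synthase CRD1 (0.01 ± 0.35) had a median of 0.01, with 5 of 51 combinations higher; that median was -0.02 when arrays were scaled to the same spread.

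**Figure D5:**
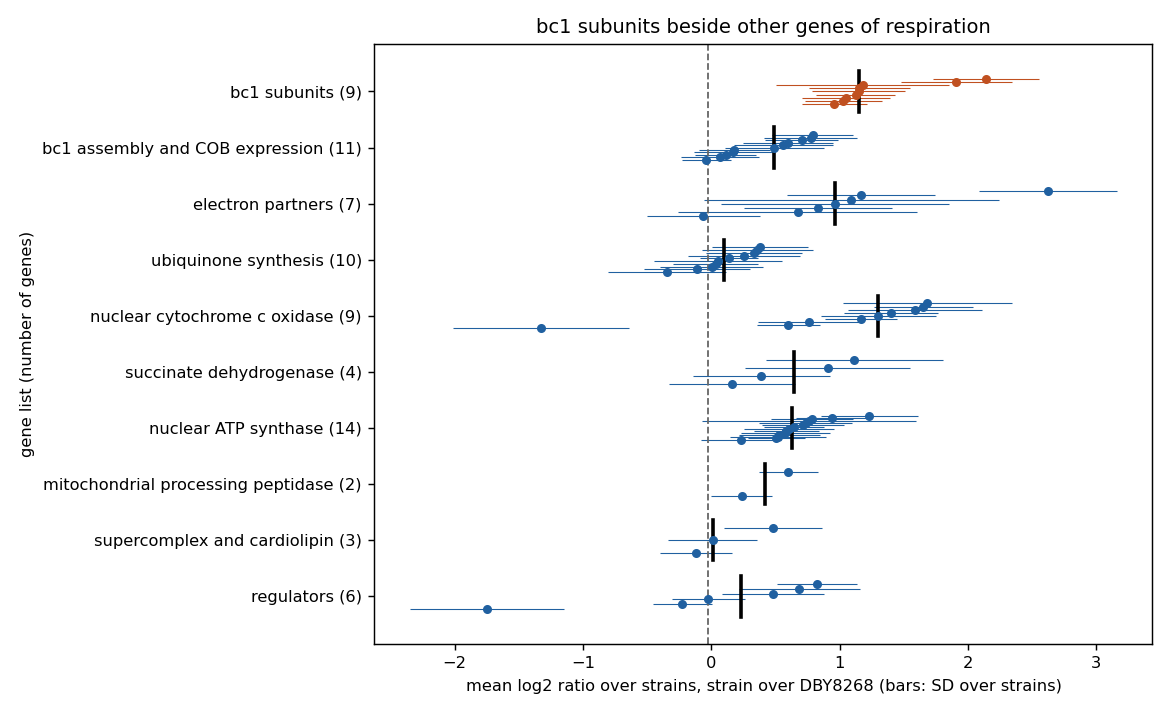
Mean log2 ratio over strains, strain over DBY8268 (x axis), of each gene in the bc1 complex (top, orange) and in 9 other lists of genes (blue), with bars for the SD over strains, black ticks for list medians and a dashed line for the median of all genes tested at -0.03. The bc1 and cytochrome c oxidase lists have the highest medians, 1.15 and 1.30, and HAP1 is the lowest point at -1.75.

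The regulators of these genes did not share one direction. HAP1 encodes a heme-responsive activator of CYC1, CYT1 and other respiratory genes, and in S288c its coding sequence is interrupted by a Ty1 element. Its transcript was lower in all 17 strains, at -1.75 ± 0.60, and called in 14. HAP4, the glucose-repressed activating subunit of the CCAAT-binding complex that also drives respiratory genes, was above 0 in all 17 strains (0.82 ± 0.31) and called higher in 3. Of the DNA-binding subunits of that complex, HAP5 averaged 0.69 ± 0.47 (2 strains higher), HAP2 -0.03 ± 0.28 (0 strains called) and HAP3 -0.23 ± 0.23 (1 strain lower). ROX1, a repressor of hypoxic genes, averaged 0.48 ± 0.40 (2 strains higher). Over the 17 strains the mean bc1 profile had r = -0.25 with HAP1 and r = 0.25 with HAP4, on points that share arrays and the DBY8268 channel. Since DBY8268 was the reference in every ratio, these r describe differences among the strains and not their shared difference from DBY8268. Whether either regulator had a part in the bc1 ratios was not tested.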

How the data were processed

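RNA of 17 strains was hybridized together with DBY8268 RNA on 54 two-colour arrays, 3 for each of 14 strains and 4 for M8, Y10 and YPS163, on 30 slides. The values used were the log2 ratios of strain over DBY8268 that the authors deposited, after they filtered spots by quality marks and pixel correlation and mean-centred each array by region. Centring hides any shift of all transcripts together, and filtering left 19.1% of values missing (3393 to 5897 present per array). Ratios of dye-reversed arrays (18) had already been turned, since 38 of 38 pairs of opposite orientation correlated above 0. The number of arrays limits the precision. The study describes the replicates as biological.

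One limma 3.58.1 fit (R 4.3.3) with a coefficient per strain gave each gene 1 variance, moderated with 3.53 prior degrees of freedom. Of 6264 genes 6033 could be tested. A strain was tested where it had at least 1 value. Benjamini-Hochberg adjustment ran over all genes of a strain, with calls at 0.01, and at 0.05 for genes common to at least 12 strains. The references were DBY8268, the mean of strains and YPS163. Alternatives covered scaling, missing values, slide, slide series, dye, replicate block, single-strain fits and each array left out. The code was tested on simulated data. Symbols came from a RefSeq R64 table that matched 5824 names. No coordinates or sequences were used.

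All 9 members were named. COB, CYC1, CYC7 and the regulators were named with values, and other lists by their highest and lowest gene. The 5 most similar genes were those with the highest Pearson r to the mean bc1 profile. The members and lists were chosen with earlier results of these data known. Strains named are the highest and lowest for a gene, those with a call, and those with an array far from its partners, which were picked after the values were seen.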

Additional observations from a re-analysis of the deposited data

Results flagged for a closer look

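In 3 of the 21 gene and strain groups with 4 arrays, 1 array stood far from its partners, and chance alone marks about 1 in 20 such groups. In YPS163, replicate 4 was the high array for QCR7 (1.81, with 1.11, 1.05 and 0.97 on replicates 1 to 3) and for QCR8 (2.44, with 1.43, 1.44 and 1.30). It was also the highest YPS163 array for RIP1 (3.45) and CYT1 (3.08), and it carried the strain in the 550 dye on series yG6. In M8, replicate 2 was the high array for QCR9 (1.31, with 0.79, 0.72 and 0.77 on the others). The part of dye, series or these single arrays was not tested.

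QCR10 differed among the 17 strains (limma F test, adjusted p = 0.00562), the only bc1 gene called by that test, with strain means between -0.02 in I14 and 2.55 in RM11a. QCR10 in RM11a lay 1.37 above the mean of strains and was called there (adjusted p = 0.00929), with arrays of 1.48, 1.91 and 4.26. Without the array at 4.26 the difference was 0.57.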

How the results depend on the processing

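Of 83 comparisons of a main count or list median with an alternative, 62 stayed and 21 moved. A count stayed if it was within 1.5 times of the main count. A list median stayed if it shifted by less than its SD over strains, which is not a spread between replicates. No called value changed sign, and the supercomplex and cardiolipin median, which has no call, was 0.01 as deposited and -0.02 with arrays scaled. Each array left out in turn gave 105 to 119 calls against DBY8268 (main 112), lowest without YPS1009 replicate 3 and highest without RM11a replicate 3, 0 to 1 against the mean of strains (main 1), 0 to 2 against YPS163 (main 0), 0 to 1 by the F test (main 1), and 7 to 9 genes common to at least 12 strains (main 8), QCR2 being the gene lost in the 16 refits with 7. The single call against the mean of strains was lost in 30 of 54 such refits, with adjusted p between 0.00454 and 0.511. Without B1 replicate 2, K9 replicate 2, K9 replicate 3, M8 replicate 1, M8 replicate 4, RM11a replicate 3, Y1 replicate 1, Y1 replicate 3 or YPS163 replicate 3, QCR8 in YJM269 was called against YPS163. Without K9 replicate 2 CYT1 in K9 was called too, and without YPS1009 replicate 3 RIP1 in YPS1009 was called.

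With arrays centred on their median, 0 combinations were called against the mean of strains and 1 against YPS163 (QCR8 in YJM269). With arrays scaled to the same spread, 0 were called against the mean of strains. Genes with a value on all arrays left only COR1 and QCR9, which gave 28 calls against DBY8268, 0 against the mean of strains, 0 by the F test and 2 common genes. With slide as a random block 1 combination was called against YPS163. Arrays of series yG6 alone gave 17 calls against DBY8268, 0 against the mean of strains, 0 by the F test and 1 common gene, and arrays of series yG5 alone gave 49, 0, 0 and 2 in the same order, on fewer arrays per strain. Each strain fitted on its own arrays, without the shared variance, gave 27 calls against DBY8268, 0 against the mean of strains and 2 common genes. The share of all genes called was not computed for the refits on 1 series or on single strains. At a rate of 0.05, 3 combinations were called against the mean of strains (QCR10 in RM11a, QCR6 in SB and QCR9 in YJM308) and 1 against YPS163. Apart from settings whose own construction shows it, the cause was not tested.

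The replicate numbers in the labels were not taken to pair the arrays, since the labels name no RNA preparation shared by arrays of the same number. Only 39.9% of 411 pairs of the same number had a residual correlation over 0.1 (lowest -0.62). The numbers did follow dye and slide series. In every strain the highest number went to an array with the dyes reversed, in most strains of another slide series than the rest. The median for pairs of the same number was 0.06, against -0.03 for pairs of other numbers. On average, 32 of 54 arrays were closest to their own number. Since number, dye and series largely coincide, these values cannot tell pairing from dye or series. With the replicate block there were 117 calls against DBY8268, 1 against the mean of strains, 0 against YPS163, 1 by the F test and 7 common genes, without QCR2. Slide series and dye as terms together, chosen after seeing the data, gave 110, 1, 0, 1 and 6, without QCR2 and QCR7.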
